A study of Mus musculus with 10 samples.

Results

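The 10 genes described here belong to glucocorticoid hormone signalling: Nr3c1, which encodes the receptor, and Fkbp5, Tsc22d3, Zbtb16, Klf9, Sgk1, Ddit4, Hif3a, Mt1 and Mt2, which are known to be induced by the activated receptor. They were chosen by symbol, with results of these same libraries known, and all 10 were found among the 46078 genes of the count table and passed the low-count filter that left 16909. Their levels and fold changes are therefore a description of these libraries and support nothing further. RNA came from back skin of C57BL/6 mice kept under specific pathogen free conditions, taken as an 8 mm punch at day 21 of life and lightly freed of fat. The SA group had been colonised as newborns with Staphylococcus aureus SF8300 and the SE group with Staphylococcus epidermidis Tü3298, in both cases with 100 µl every other day from day 3 to day 19. Each group held 5 libraries. Uncolonised skin was not analysed here, so each value is relative between the groups, and whether the libraries of a group are separate mice is not stated in the labels, so the tests here measure spread between libraries only.

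Glucocorticoids such as corticosterone enter cells and bind a receptor that waits in the cytoplasm with heat shock chaperones. The loaded receptor moves to the nucleus, binds DNA at palindromic response elements and switches on genes that dampen inflammation, shift metabolism towards fasting fuels and limit the signal itself. In skin, the hormone also restrains keratinocyte and hair matrix growth, and skin can regenerate active hormone from its inactive form.

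Gene reads per library ranged from 21140654 to 25417851. On the first principal component (45.4% of the variance), SE libraries 3, 4 and 5 scored 37.6 to 54.0 and the other 7 libraries -32.2 to -9.32. For this reason values of these 3 libraries are given apart. Whole-skin markers were present throughout, with summed levels of 11420 to 17351 CPM (counts divided by the TMM-scaled library size, the unit of all levels below unless another is named) for 11 keratinocyte genes and 36767 to 68140 CPM for 8 fibroblast genes. Libraries SA 1, SA 3 and SE 3 held more reads of the Y-linked Ddx3y than of the X-linked Xist. The call rule was an adjusted p under 0.05 in edgeR's quasi-likelihood test over all 16909 genes. Each log2 fold change is SA minus SE, given ± its standard error, and is negative where the level was lower in SA.

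Transcript levels of the receptor itself were nearly the same in every library. Nr3c1 (ENSMUSG00000024431) was at 251, 286, 250, 294 and 285 CPM in SA libraries 1 to 5 and at 296, 280, 264, 255 and 245 CPM in SE libraries 1 to 5. The groups overlapped almost fully, and SE libraries 3 to 5 were among the lower values. Its log2 fold change was 0.03 ± 0.08 (edgeR adjusted p = 0.903), and without SE 3 to 5 it was -0.07. The SD of its log2 level in SE was 0.11, at the 14.5th percentile of all tested genes, and so among the less variable genes of the SE group.

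Fkbp5 (ENSMUSG00000024222, GRCm38 chr17:28399094-28517527, minus strand) encodes FKBP51, a co-chaperone that binds the receptor complex and lowers its hormone affinity, which closes a feedback loop. It was at 28.1, 27.2, 32.2, 41.9 and 32.4 CPM in SA libraries 1 to 5 and at 44.9, 41.8, 61.8, 70.1 and 55.8 CPM in SE libraries 1 to 5. SE 3 to 5 were the highest of all, SE 1 and 2 came next, and the groups overlapped only through SA 4 at 41.9 CPM and SE 2 at 41.8 CPM. The mean was 32.4 ± 5.83 CPM in SA and 54.9 ± 11.7 CPM in SE (SD, n = 5 each), 1.70-fold higher in SE. Its log2 fold change of -0.76 ± 0.155 did not pass the threshold (edgeR adjusted p = 0.0995). Without SE 3 to 5 it was -0.42 ± 0.151 (edgeR adjusted p = 0.411). Leaving out SE 1 gave an edgeR adjusted p of 0.0419 and leaving out SE 2 gave 0.0420, within a range of 0.00133 to 0.411 over 20 alternatives. In whole tissue, fewer cells of a type and less RNA per cell cannot be told apart.

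Tsc22d3 (ENSMUSG00000031431, GRCm38 chrX:140539528-140600659, minus strand) encodes the leucine zipper protein GILZ, which blocks NF-kB and AP-1. It was at 88.7, 131, 75.9, 127 and 144 CPM in SA libraries 1 to 5 and at 119, 139, 288, 294 and 270 CPM in SE libraries 1 to 5. SE 1 and 2 lay inside the SA range, whereas the lowest of SE 3 to 5 was 1.88-fold above the highest of the other 7. Means were 113 ± 29.2 CPM in SA and 222 ± 86.0 CPM in SE (SD, n = 5 each). The log2 fold change was -0.97 ± 0.271 (edgeR adjusted p = 0.234), the largest difference in size among the 10 genes, and was -0.18 ± 0.235 without SE 3 to 5. Per unit of receptor transcript the split was also clear: the ratio of Tsc22d3 to Nr3c1 reads was 1.09 to 1.15 in SE 3 to 5 and 0.303 to 0.504 in the other 7. The same ratio for Fkbp5 was 0.228 to 0.275 against 0.0951 to 0.152.

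Zbtb16 (ENSMUSG00000066687, GRCm38 chr9:48654297-48836222, minus strand) encodes the zinc finger repressor PLZF. Its levels were 22.4, 22.5, 21.7, 33.0 and 34.0 CPM in SA libraries 1 to 5 and 39.8, 26.9, 51.0, 58.7 and 62.1 CPM in SE libraries 1 to 5. SE 1 lay above every SA library and SE 2 inside their range, with SE 3 to 5 above both. Zbtb16 had a log2 fold change of -0.84 ± 0.218 (edgeR adjusted p = 0.207), and -0.32 ± 0.226 without SE 3 to 5. Leaving out SE 2 alone brought the edgeR adjusted p to 0.0420, within a range of 0.0194 to 0.730 over 20 alternatives.

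Klf9 (ENSMUSG00000033863, GRCm38 chr19:23141226-23168134, plus strand) encodes a Krüppel-like factor that slows keratinocyte division and also follows the daily rhythm. It was at 55.3, 85.1, 65.6, 84.5 and 82.0 CPM in SA libraries 1 to 5 and at 81.3, 71.7, 139, 114 and 123 CPM in SE libraries 1 to 5. Once more SE 1 and 2 sat within the SA range and SE 3 to 5 above it. Its log2 fold change of -0.51 ± 0.184 (edgeR adjusted p = 0.354) shrank to -0.03 ± 0.163 without those 3 libraries.

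Sgk1 (ENSMUSG00000019970, GRCm38 chr10:21882184-21999903, plus strand) encodes a kinase that regulates ion channels and FOXO factors. It was at 122, 117, 104, 131 and 127 CPM in SA libraries 1 to 5 and at 100, 116, 216, 251 and 253 CPM in SE libraries 1 to 5. The 7 libraries other than SE 3 to 5 spanned only 100 to 131 CPM, and the lowest of SE 3 to 5 was 1.65-fold above the highest of them. The log2 fold change was -0.64 ± 0.236 (edgeR adjusted p = 0.361) and turned to 0.16 ± 0.101 without SE 3 to 5 (edgeR adjusted p = 0.687). Between the SA libraries its log2 SD was 0.13, and between the SE libraries 0.64, at the 92.9th percentile of all tested genes. The SD was larger in SE than in SA for 70.4% of all tested genes.

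Ddit4 (ENSMUSG00000020108, GRCm38 chr10:59949669-59951834, minus strand) encodes REDD1, an inhibitor of the growth kinase complex mTORC1 that is also induced by hypoxia and stress. Its levels were 60.3, 54.6, 56.3, 61.5 and 68.2 CPM in SA libraries 1 to 5 and 56.3, 87.1, 97.1, 114 and 91.3 CPM in SE libraries 1 to 5. Here SE 2 lay close under SE 3 to 5 and only SE 1 fell within the SA range. For Ddit4 the log2 fold change was -0.57 ± 0.150 (edgeR adjusted p = 0.213), and -0.24 ± 0.145 without SE 3 to 5. Leaving out SE 1 alone gave -0.69 with an edgeR adjusted p of 0.0102, within a range of 0.0102 to 0.671 over 20 alternatives.

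**Figure D1:**
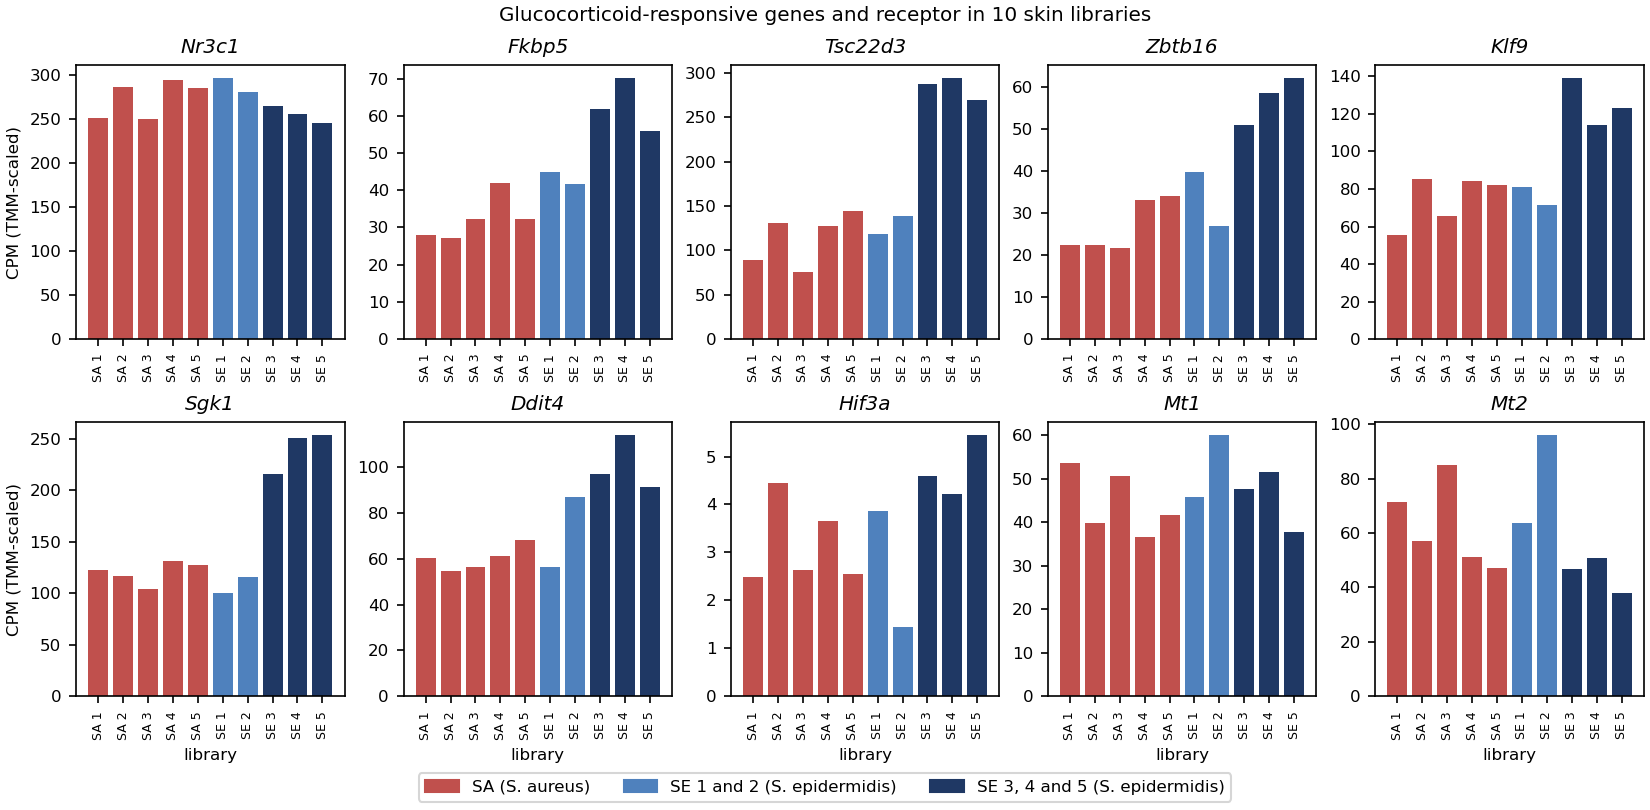
Level of each of the 10 genes in every library, in TMM-scaled CPM on axes that start at 0 and differ between panels; each bar is 1 library, red for SA, light blue for SE 1 and 2 and dark blue for SE 3 to 5. In the panels of Fkbp5, Tsc22d3, Zbtb16, Klf9, Sgk1 and Ddit4 the dark blue bars are the 3 tallest, while Nr3c1 stays between 245 and 296 CPM and Mt1 and Mt2 show no such step.

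Hif3a (ENSMUSG00000004328, GRCm38 chr7:17031507-17062427, minus strand) encodes a hypoxia-inducible factor subunit whose short forms oppose the other subunits. It was the least abundant of the 10, at 2.48, 4.44, 2.63, 3.66 and 2.55 CPM in SA libraries 1 to 5 and 3.87, 1.45, 4.59, 4.21 and 5.44 CPM in SE libraries 1 to 5. Both the lowest and the highest value were in SE, and SE 4 lay under SA 2. The log2 fold change was -0.31 ± 0.300 (edgeR adjusted p = 0.709), and 0.24 ± 0.367 without SE 3 to 5. The library with the fewest reads of Hif3a held 33, so its counting error was larger than that of the other 9, which had at least 478 in each library.

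The metallothioneins Mt1 (ENSMUSG00000031765, GRCm38 chr8:94179082-94180327, plus strand) and Mt2 (ENSMUSG00000031762, GRCm38 chr8:94172664-94173568, plus strand) encode small proteins that bind zinc and copper and are induced by metals as well as by glucocorticoids. Mt1 was at 53.7, 39.9, 50.7, 36.6 and 41.7 CPM in SA libraries 1 to 5 and at 45.8, 60.0, 47.6, 51.7 and 37.7 CPM in SE libraries 1 to 5. Mt2 was at 71.3, 57.1, 85.0, 51.1 and 47.1 CPM in SA libraries 1 to 5 and at 63.8, 95.9, 46.9, 50.8 and 38.1 CPM in SE libraries 1 to 5. Both had their highest value in SE 2, and SE 3 to 5 were not raised: for Mt2 they were 3 of the 4 lowest values. The log2 fold change was -0.13 ± 0.134 for Mt1 and 0.08 ± 0.235 for Mt2 (edgeR adjusted p = 0.733 and 0.913). The sign of Mt2 turned without SE 3 to 5, to -0.35 ± 0.239, and also without SA 3 (-0.06) or SE 5 (-0.04). Although the genes are neighbours, their balance differed by library: the ratio of Mt2 to Mt1 reads was 0.983 to 1.01 in SE 3 to 5 and 1.13 to 1.68 in the other 7. By the annotation, 73.5% of the exonic bases of Mt2 lie opposite an antisense gene, and no source used here gives the strand setting of the counts, so the level of Mt2 is uncertain. None of the other 9 genes shares exonic bases with a gene on the opposite strand.

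The fit called 0 of the 10 genes at an adjusted p under 0.05 (edgeR), and 0.0769% of all tested genes in either direction or 0.0177% lower in SA. At an unadjusted edgeR p under 0.05 there were 6 of 10, namely Fkbp5, Tsc22d3, Zbtb16, Klf9, Sgk1 and Ddit4, all lower in SA, against 6.52% of all tested genes in that direction. DESeq2 run on the same counts called Fkbp5, Tsc22d3, Zbtb16 and Ddit4 lower in SA and 0.923% of all tested genes in that direction, and limma voom called 0 of the 10 and 0.0710% of all. DESeq2 adjusted p-values were 0.00133, 0.0246, 0.0194 and 0.0344. The authors' deposited table calls the same 4 genes, with log2 fold changes of -0.62, -0.61, -0.59 and -0.46, and 0.515% of its 18652 genes in that direction. That table compares the same groups, so it is no separate support. DESeq2 run here gave -0.76, -0.97, -0.84 and -0.57, and the reason for the smaller deposited values was not tested. Without SE 3 to 5, edgeR called 0 of the 10 genes and 0.250% of all at the adjusted threshold. At an unadjusted edgeR p under 0.05 only Fkbp5 remained, against 9.42% of all genes in either direction and 4.26% lower in SA. Since the genes were chosen from this contrast, nothing is read from these shares.

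Separation of whole groups was not seen: 0 of the 10 genes had all SA libraries on one side of all SE libraries, a separation found for 2.05% of all tested genes. Separation of SE 3 to 5 from the other 7 was seen for 6 of 10 genes, all higher in SE 3 to 5, and 13.8% of all tested genes lay that way. The median log2 fold change of the 10 genes was -0.54, and -0.21 without SE 3 to 5. The median over all tested genes was -0.01 in the first case and 0.00 in the second. Of the 10 genes, 8 had a negative fold change in each case, against 51.7% and 50.4% of all tested genes.

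**Figure D2:**
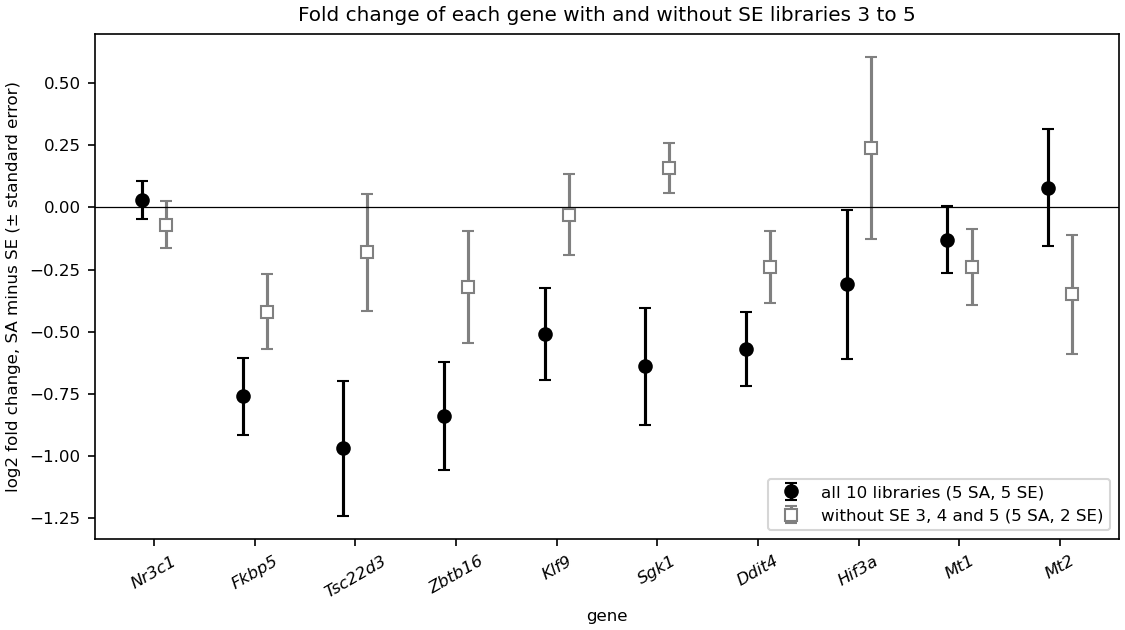
Log2 fold change, SA minus SE, of each gene with its standard error, from the edgeR fit of all 10 libraries (filled circles) and of the 7 libraries left without SE 3 to 5 (open squares). Fkbp5 moves from -0.76 to -0.42 and Tsc22d3 from -0.97 to -0.18, while Sgk1 moves across 0 from -0.64 to 0.16.

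Other tissue signals moved with SE 3 to 5. The summed level of the hair shaft and matrix markers was 480 to 3016 CPM in SE 3 to 5 and 39.6 to 113 CPM in the other 7, with 16 of 17 markers all above. Of the 14 hair markers that passed the low-count filter, 13 were all above. Proliferation markers summed to 333 to 374 CPM against 554 to 812 CPM, with 12 of 12 all below. Red blood cell genes summed to 88.1 to 149 CPM against 247 to 581 CPM, with 5 of 6 all below and 1 all above. Of all tested genes, 13.8% had SE 3 to 5 all above the other 7 and 11.3% all below. The 8 sebaceous gland genes summed to 3021 to 3293 CPM against 3803 to 5463 CPM, but only 2 of 8 were all below. Sebaceous sums also differed within the other 7, at 4865 to 5463 CPM in SA and 3803 to 4315 CPM in SE 1 and 2. The 6 B cell genes summed to 30.8 to 40.4 CPM against 44.6 to 103 CPM, with 1 of 6 all below (1 of the 4 tested). No marker in these 5 lists was without reads. Skeletal muscle genes overlapped in their summed level, at 17107 to 19750 CPM against 16741 to 31219 CPM, as did the 10 macrophage genes, at 602 to 995 CPM against 680 to 1617 CPM. The part of these tissue differences in the levels of the 10 genes was not tested.

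Levels per length place the genes on 1 scale, but their order rests on the exon lengths used. Each length is the union of all annotated exons of a gene. For Mt1 this union is 1246 bases and covers the gene from end to end, while for Mt2 it is 588 bases. With a shorter model the level of Mt1 would be higher. In RPKM (CPM per kilobase of exon, from GENCODE M21 exon lengths), SA means were 106 ± 26.6 for Mt2, 35.7 ± 5.89 for Mt1, 35.6 ± 2.72 for Nr3c1 and 34.3 ± 3.03 for Ddit4 (SD, n = 5 each, as in the next sentences). Tsc22d3 at 26.1 ± 6.73 and Sgk1 at 24.5 ± 2.15 RPKM followed, then Klf9 at 15.5 ± 2.78, Zbtb16 at 5.06 ± 1.17, Fkbp5 at 3.42 ± 0.616 and Hif3a at 0.470 ± 0.129 RPKM. At these lengths Mt1, Nr3c1 and Ddit4 did not differ beyond their spread in SA, nor did Tsc22d3 and Sgk1. In SE the order changed: Mt2 was at 100 ± 38.4 RPKM, Tsc22d3 at 51.2 ± 19.8, Ddit4 at 50.8 ± 12.1, Mt1 at 39.0 ± 6.55, Sgk1 at 38.2 ± 15.1 and Nr3c1 at 34.9 ± 2.60 RPKM. The last 4 of these means lay within the SD of Tsc22d3. The rise of Tsc22d3 in this order lay with SE 3 to 5, where it was at 62.3 to 67.8 RPKM. In SE 1 and 2 it was at 27.3 and 32.0 RPKM, under Nr3c1 at 38.5 and 36.4 RPKM and Mt1 at 36.8 and 48.1 RPKM. Ddit4 was above Mt1 and Nr3c1 in SE 2 and SA 5 as well, at 49.6 and 38.9 RPKM. The 4 genes at the bottom kept their places, with Klf9 at 22.0 ± 5.94, Zbtb16 at 9.03 ± 2.73, Fkbp5 at 5.80 ± 1.24 and Hif3a at 0.583 ± 0.223 RPKM. Fkbp5, often used as a marker of hormone exposure, was thus the second least abundant of the 10 by RPKM in both groups. Its rank rests on an exon length of 9468 bases. By mean CPM, Zbtb16 was below Fkbp5, at 26.7 against 32.4 CPM in SA and 47.7 against 54.9 CPM in SE.

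Promoter sequence was examined because 6 genes shared a library pattern and the metallothioneins did not. RefSeq windows of GRCm38.p6 covered 8 of the 10 genes with 15 start sites, and the 250 bases before each start were searched on both strands. Zbtb16 and Nr3c1 had no window. The full palindrome bound by the receptor, AGAACA followed by 3 bases of any kind and TGTTCT, occurred in 3 of 32851 windows of all genes (0.00913%), and 1 of these 3 belongs to Sgk1. A relaxed form, GNACA followed by 3 bases of any kind and TGTNC, occurred in 127 windows (0.387%), among them the same Sgk1 window and that of Mt1. Each match of the full palindrome is also a match of the relaxed form and of the single arm AGAACA, which occurred in 16.1% of windows. The Sgk1 match lies 189 to 175 bases before the start of one of its 6 windows, at chr10:21993701-21993715, within the span of longer Sgk1 gene models. Fkbp5 had 1 window, which lies within the span of its gene, and the outer 5′ end at chr17:28517527 was not searched. The Fkbp5 window holds neither palindrome nor the single arm but 3 matches of the GC box GGGCGG, which occurred in 32.7% of all windows. Both are shown 5′ to 3′ on the gene's strand, Sgk1 from chr10:21993640-21993889 with the palindrome in capitals and Fkbp5 from chr17:28486150-28486399 with the GC boxes in capitals, since these genes shared a library pattern. The Sgk1 window also holds 1 GC box, in lower case on the opposite strand, and both windows hold the hypoxia element core ACGTG, while the palindromes and the single arm are in the Sgk1 window only.
Sgk1: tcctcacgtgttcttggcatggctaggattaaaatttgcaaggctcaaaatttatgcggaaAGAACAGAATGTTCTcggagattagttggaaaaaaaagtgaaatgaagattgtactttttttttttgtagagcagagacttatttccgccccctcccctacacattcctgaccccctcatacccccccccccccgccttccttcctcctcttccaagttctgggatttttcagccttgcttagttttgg
Fkbp5: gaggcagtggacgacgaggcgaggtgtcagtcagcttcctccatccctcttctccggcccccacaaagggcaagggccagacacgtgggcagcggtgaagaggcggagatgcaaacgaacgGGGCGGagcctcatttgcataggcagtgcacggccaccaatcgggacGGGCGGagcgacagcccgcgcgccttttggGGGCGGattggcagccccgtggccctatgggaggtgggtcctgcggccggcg

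The metallothionein windows were searched for the metal response element, TGCGCNC, found in 12.5% of windows, and its variant TGCACNC, found in 10.4%. Mt2 held 1 match of the first and 2 of the second, and Mt1 held 1 of the second beside its relaxed receptor palindrome at chr8:94178995-94179007. These counts cover only the 250 bases before 1 RefSeq start of each gene, and elements elsewhere were not searched. The Mt2 window ends at chr8:94172617, before the GENCODE gene start at chr8:94172664, so the counts do not compare whole promoters. The elements were not confined to the metallothionein windows: the Ddit4 window also held 1 match of the first and the Hif3a window 1 of the second. The metallothionein windows are shown 5′ to 3′ because these neighbours differ in both letters and balance, Mt2 from chr8:94172368-94172617 with metal elements in capitals and Mt1 from chr8:94178839-94179081 with its metal element and the palindrome in capitals, both on the plus strand.
Mt2: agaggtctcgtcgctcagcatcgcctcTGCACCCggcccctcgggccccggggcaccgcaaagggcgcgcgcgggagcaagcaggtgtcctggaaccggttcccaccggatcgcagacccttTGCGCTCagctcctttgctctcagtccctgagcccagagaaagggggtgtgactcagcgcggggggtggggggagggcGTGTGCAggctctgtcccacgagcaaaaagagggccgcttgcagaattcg
Mt1: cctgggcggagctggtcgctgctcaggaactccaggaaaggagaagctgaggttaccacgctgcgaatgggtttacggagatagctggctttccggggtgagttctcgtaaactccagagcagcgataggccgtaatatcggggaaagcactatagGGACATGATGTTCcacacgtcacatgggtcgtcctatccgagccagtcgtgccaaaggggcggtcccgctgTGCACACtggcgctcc
The palindrome of Mt1 is the first run of capitals in its sequence, and the metal element the last. The hypoxia element core, ACGTG, occurred in 16.6% of windows and in 1 window each of Fkbp5, Klf9, Sgk1, Mt1 and Ddit4, but not in the window of Hif3a. These matches are descriptions of letters, and a window without a match says nothing about binding of the factor.

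The rest of the receptor machinery was described from a list of 17 chaperones and cofactors, all tested, of which 0 passed the threshold in either direction (edgeR). At an unadjusted edgeR p under 0.05, 5 of 17 were lower in SA (6.52% of all tested genes) and 0 higher, and the list median was -0.08. The inducible chaperone Hspa1a was at 28.8 to 43.0 CPM in SE 3 to 5 and 13.5 to 28.5 CPM in the other 7, and the coactivator Crebbp at 91.9 to 99.7 CPM against 67.4 to 77.8 CPM. Their log2 fold changes were -0.68 ± 0.244 and -0.24 ± 0.0981 (edgeR adjusted p = 0.354 and 0.413). Dnajb1, a partner of the HSP70 chaperones, was at 98.3 to 117 CPM in SE 3 to 5 and 72.6 to 111 CPM in the other 7. Hsp90aa1, the inducible form of the chaperone that holds the receptor, had its highest value in SE 2, at 230 CPM. Fkbp4, the co-chaperone that competes with FKBP51, was at 162 to 177 CPM in SE 3 to 5 and 173 to 234 CPM in the other 7, so it did not share the Fkbp5 step. Nr3c2, which encodes the mineralocorticoid receptor that also binds corticosterone, was far scarcer than Nr3c1, between 7.74 and 11.7 CPM.

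Genes that make or convert the hormone were mostly scarce in this skin. Of 17 listed, 9 were tested and 0 passed the threshold in either direction (edgeR), with a median of 0.06, while 2 were higher and 1 lower in SA at an unadjusted edgeR p under 0.05 (11.1% of all tested genes in either direction). Hsd11b1, which regenerates active hormone, was at 6.32 ± 1.27 CPM in SA and 4.61 ± 1.26 CPM in SE (SD, n = 5 each), with a log2 fold change of 0.45 ± 0.203 (edgeR adjusted p = 0.435). Hsd11b2, which inactivates it, stayed between 0.275 and 1.25 CPM. The ratio of Hsd11b1 to Hsd11b2 reads ran from 5.56 to 10.8 in SE 3 to 5 and from 4.97 to 12.2 in the other 7, so it did not follow the split of the target genes. Cyp17a1, a steroid hydroxylase, was at 45.0 to 73.8 CPM in SE 3 to 5 and 29.9 to 38.2 CPM in the other 7 (log2 fold change -0.51 ± 0.174, edgeR adjusted p = 0.336). Mc2r, the receptor for the pituitary hormone ACTH, was at 3.67 ± 0.653 CPM in SA and 2.29 ± 0.816 CPM in SE (SD, n = 5 each), and H6pd, which supplies cofactor to the Hsd11b1 enzyme, was at 52.1 ± 6.87 and 60.7 ± 13.5 CPM. Cyp11b2, Nr0b1 and Crh had no read in any library.

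Another 40 genes known to be induced by glucocorticoids were described beside the 10. The list was chosen with earlier results of these libraries known. Its counts are therefore a description and cannot show how widely the pattern of the 10 runs. Of the 39 tested, 0 passed the threshold in either direction (edgeR), while 14 were lower and 1 higher in SA at an unadjusted edgeR p under 0.05, against 11.1% of all tested genes in either direction. DESeq2 called 7, all lower in SA: Pdk4, Angptl4, Pck1, Timp3, Plin4, Txnip and Map3k6, against 1.76% of all tested genes in either direction. The median log2 fold change was -0.20 with 36 of 39 below 0, where 51.7% of all tested genes lay below 0. Without SE 3 to 5 the median was 0.06 with 16 of 39 below 0, against 50.4% of all tested genes. All of SE 3 to 5 lay above the other 7 for 17 of the 39 (13.8% of all tested genes). They lay below for 1, Lcn2 (11.3% of all).

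Pdk4, a kinase that turns off glucose oxidation, was at 8.67, 14.3, 14.3, 17.1 and 16.1 CPM in SA libraries 1 to 5 and at 22.0, 29.9, 136, 144 and 114 CPM in SE libraries 1 to 5. It kept a gap between the groups, with a log2 fold change of -2.66 ± 0.527 (edgeR adjusted p = 0.115) that shrank to -0.87 without SE 3 to 5. Pck1, the rate-limiting enzyme of gluconeogenesis, was at 47.6 to 85.1 CPM in SE 3 to 5 and 11.7 to 42.0 CPM in the other 7 (log2 fold change -1.56 ± 0.361, edgeR adjusted p = 0.159). Timp3, a metalloproteinase inhibitor, did not share the split of SE 3 to 5: it ran from 202 to 245 CPM in SA and from 272 to 315 CPM in SE, and its log2 fold change of -0.37 ± 0.0763 (edgeR adjusted p = 0.109) was -0.32 without SE 3 to 5. Map3k6, a stress kinase, was at 37.3 to 41.9 CPM against 19.2 to 24.7 CPM (log2 fold change -0.64 ± 0.159, edgeR adjusted p = 0.189). In this list 5 genes had every SA library under every SE library, Pdk4, Timp3, Map3k6, Plin4 and Gadd45g, against 0.917% of all tested genes. Plin4 and Gadd45g were named after their values were seen.

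**Figure D3:**
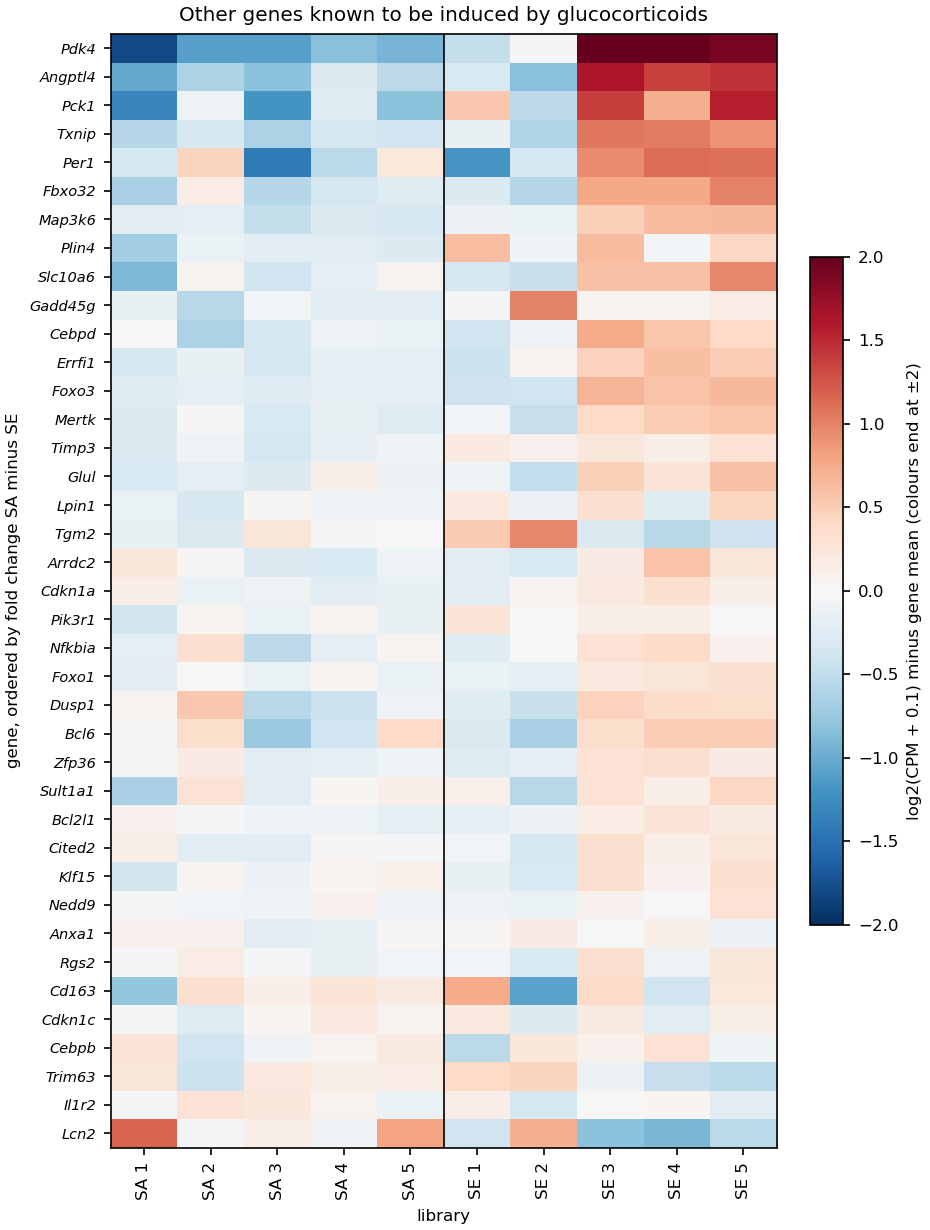
Each row is one of 39 other genes known to be induced by glucocorticoids and each column a library; colour is the log2(CPM + 0.1) level minus the gene's own mean over the 10 libraries, with colours ending at ±2, and rows run from the most negative to the most positive fold change. The right-hand 3 columns, SE 3 to 5, are red for most of the upper rows, led by Pdk4, and blue for Lcn2 at the foot.

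Inflammatory genes that the receptor is known to repress had positive fold changes in 12 of 15 tested members of a list of 20 and negative ones in 3, where 51.7% of all tested genes were negative, and their median was 0.19. Of the 15, 0 passed the threshold in either direction (edgeR), 2 were higher and 0 lower in SA at an unadjusted edgeR p under 0.05 (11.1% of all in either direction), and DESeq2 called 1, Il1b. Without SE 3 to 5, 6 of these 15 were negative, against 50.4% of all tested genes, and their median was 0.28. Of 9 neutrophil genes 5 passed the low-count filter. All 5 were higher in SA at an unadjusted edgeR p under 0.05, against 769 of all 16909 tested genes. Their median was 0.83, with summed levels of 17.8 to 62.1 CPM in SA and 10.7 to 23.7 CPM in SE. The summed level of the 10 T cell genes was 58.6 to 63.4 CPM in SA and 42.0 to 48.4 CPM in SE. Of the 9 tested T cell genes, 1 was higher in SA at the adjusted threshold (edgeR), as were 10 of all 16909 tested genes. At an unadjusted edgeR p under 0.05, 5 of the 9 were higher in SA and 0 lower. Other immune lists were mixed: 2 of 4 tested B cell genes were higher at that p, but 0 of 10 macrophage and 0 of 5 mast cell genes. Without SE 3 to 5, 8 of 10 macrophage genes had a negative fold change. The part of immune cells in the levels of the inflammatory genes was not tested. Il1b was at 2.02, 3.70, 1.75, 9.57 and 3.31 CPM in SA libraries 1 to 5 and at 1.73, 1.76, 1.07, 0.961 and 0.960 CPM in SE libraries 1 to 5, and SA 4 stood far above the rest (log2 fold change 1.64 ± 0.444, edgeR adjusted p = 0.222). SE 3 to 5 were its lowest libraries. The collagenase gene Mmp13 lay the other way, at 1.01 to 1.65 CPM in SE 3 to 5 and 0.176 to 0.727 CPM elsewhere, while the stromelysin gene Mmp3 overlapped, at 38.6 to 59.0 against 53.7 to 105 CPM. The chemokine gene Ccl20 had its lowest value, 0.685 CPM, in SE 1.

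Programmes that share inducers with the 10 genes were also counted, and 0 of their members passed the threshold in either direction (edgeR). DESeq2 called 0 genes of the chaperone, hormone conversion, zinc, hypoxia, stress response and clock lists, and limma voom called 0 in all the lists beside the 10 genes, cell type markers aside. Among 10 metallothionein and zinc genes, Mt1 and Mt2 included, the median was -0.10, and 3 were lower and 0 higher in SA at an unadjusted edgeR p under 0.05, where 6.52% of all tested genes were lower and 11.1% passed in either direction. The zinc exporter gene Slc30a1 was at 61.1 to 70.6 CPM in SE 3 to 5 and 45.4 to 53.7 CPM in the other 7, and the importer gene Slc39a8 at 22.0 to 27.0 against 14.6 to 19.3 CPM, which is a split that Mt1 and Mt2 lacked. The zinc transporter genes Slc30a4 and Slc39a14 were at 105 to 123 against 85.6 to 92.4 CPM and at 40.8 to 48.8 against 30.3 to 43.4 CPM. Mtf1, the metal-sensing factor that drives metallothioneins, stayed between 30.1 and 35.8 CPM. Among 15 hypoxia genes the median was 0.08, with 1 lower and 1 higher in SA at an unadjusted edgeR p under 0.05. Bnip3, a mitophagy receptor gene, was at 91.4 to 103 CPM in SE 3 to 5 and 62.5 to 79.8 CPM in the other 7, but the glucose transporter gene Slc2a1 lay below, at 28.2 to 30.3 against 32.3 to 40.3 CPM. Egln3, an oxygen sensor gene, overlapped, at 41.7 to 48.9 against 37.9 to 62.7 CPM, and Pdk1, a relative of Pdk4, lay below, at 58.7 to 64.8 against 66.1 to 71.5 CPM. In this list SE 3 to 5 were all above the other 7 for 1 gene and all below for 4, against 13.8% and 11.3% of all tested genes. Of 10 genes of the integrated stress response, another inducer of Ddit4, the median was -0.06, with 2 lower and 1 higher in SA at an unadjusted edgeR p under 0.05, and SE 3 to 5 were all above for 4 genes and all below for 2. In SE 3 to 5 and the other 7 respectively, Vldlr was at 41.0 to 42.0 and 33.1 to 48.9 CPM and Ppp1r15a at 33.3 to 37.9 and 22.2 to 27.6 CPM, with Chac1 at 5.91 to 22.5 CPM in SE 3 to 5 and 2.02 to 4.12 CPM in the other 7 and Psat1 at 84.2 to 110 against 111 to 146 CPM.

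Several fasting genes had wide steps between SE 3 to 5 and the other 7. Of 15 listed 14 were tested, with a median of -0.32, 8 had all of SE 3 to 5 above the other 7 (13.8% of all tested genes), and 6 were lower (6.52% of all) and 0 higher in SA at an unadjusted edgeR p under 0.05. Without SE 3 to 5 the median was 0.00, with 7 of 14 negative (50.4% of all). Pdk4, Angptl4 and Foxo1, each with all of SE 3 to 5 above the other 7, are also in the list of induced targets. The counts of these lists are therefore not separate observations. Pdk4 and Angptl4 were among those that DESeq2 called. Angptl4, a lipoprotein lipase inhibitor also listed among the induced targets, was at 161 to 191 CPM in SE 3 to 5 and 30.3 to 51.0 CPM in the other 7. Its log2 fold change was -1.60 ± 0.437 (edgeR adjusted p = 0.236), and -0.08 without SE 3 to 5. Ucp2, a mitochondrial carrier gene, was at 368 to 470 against 264 to 282 CPM. Among 16 clock genes the median was -0.15, and 3 had SE 3 to 5 all above, a share near the 13.8% of all tested genes. In SA 4 were lower (6.52% of all) and 0 higher at an unadjusted edgeR p under 0.05. Per1, which answers both to glucocorticoids and to the time of day, was at 155 to 175 CPM in SE 3 to 5 and 30.1 to 110 CPM in the other 7, and Per2 at 11.8 to 14.0 against 1.71 to 10.2 CPM. Cry1, a clock repressor, was at 22.9 to 25.1 against 15.8 to 21.0 CPM, whereas Tef and Ciart overlapped, at 148 to 161 against 101 to 160 CPM and 3.56 to 4.84 against 2.16 to 4.35 CPM. The ratio of Per1 to Dbp reads, a clock output gene, was 15.8 to 22.7 in SE 3 to 5 and 2.66 to 10.2 in the other 7. The labels used here give no hour of collection and no feeding state, and the part of either in the levels of the 10 genes was not tested.

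Genes with the profile most like Fkbp5 and Mt2 were looked up by the root mean square difference of log2(CPM + 0.1) levels, each centred on its own mean over 10 libraries, among 13852 genes. Nearest to Fkbp5 were Rerg at 0.149, Nalcn at 0.163, Prkg1 at 0.167, Cldn8 at 0.175 and Piwil2 at 0.202, while a flat profile lay at 0.451. Zbtb16 ranked 17th at 0.230, Ddit4 26th at 0.244 and Klf9 52nd at 0.263, whereas Tsc22d3, with its larger step, ranked only 1183rd at 0.364. Nearest to Mt2 was Rcc1, followed by Rpa2 at 0.137, Grwd1 and Rab26os at 0.144 and Dut at 0.153, with a flat profile at 0.394. Mt1 ranked 1029th for Mt2 at 0.274, so many other genes tracked Mt2 more closely than its neighbour did. The points share libraries, depth and scaling, so these distances are descriptions.

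**Figure D4:**
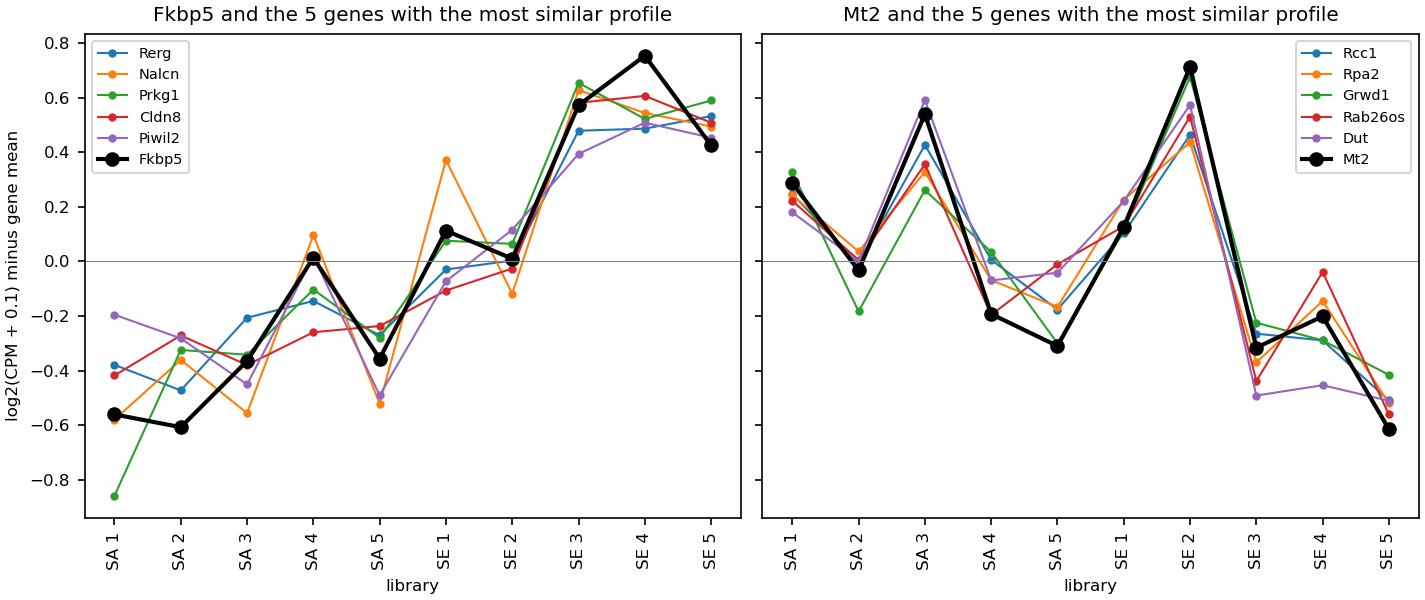
Log2(CPM + 0.1) level minus the gene's own mean, by library, for Fkbp5 (left, black) and Mt2 (right, black) with the 5 genes of most similar profile in colour; lines join libraries only to guide the eye. Fkbp5 and its neighbours are highest in SE 3 to 5, whereas Mt2 is highest in SE 2 and SA 3 and lowest in SE 5, and its neighbours follow it with gaps, as Grwd1, whose highest SA library is SA 1.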

How the data were processed

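Whole-skin RNA of 10 mouse libraries was measured by sequencing. The deposited counts are whole reads per gene. Per the submitters' processing notes, the authors used HTSeq 0.6.1p1, SAMtools and STAR 2.4.2a, with the genome GRCm38, also called mm10. No source used here gives the annotation release or strand setting, so opposite-strand overlaps cannot be told apart. Another deposited table holds the authors' log2 fold changes and p-values, for which those notes name DESeq2. It supplied gene symbols, and its values are printed as theirs. Of 206 genes it called that were tested here, 206 had the sign of SA minus SE.

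Groups came from the sample titles. The 5 rows that name no gene, with 30.5% to 34.6% of listed reads, were left out. Counts were tested with edgeR 4.0.16 (R 4.3.3; filterByExpr, minimum count 10; TMM scaling; two-sided quasi-likelihood test, SA against SE, no covariate; Benjamini-Hochberg over 16909 genes), with fold changes at a prior count of 0.125. CPM values are TMM-scaled. The scripts were tested on simulated data. Alternatives were DESeq2 1.42.0, limma 3.58.1 voom, other scalings and filters, a replicate block, a sex-gene covariate, a prior count of 2 and libraries left out. Replicates differed beyond sampling noise (chi-square per degree of freedom 5.40 to 92.7). Same-numbered SA and SE libraries did not deviate together (correlations -0.29 to 0.07), so they were not treated as pairs. Exon lengths and coordinates came from GENCODE M21 and promoter windows from RefSeq, GRCm38.p6.

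The members and the companion lists were chosen with earlier results of these data known. Genes named were taken from the 10 members, the 4 smallest p of each companion list, the most abundant 2 markers of each cell type and the 5 profiles nearest to Fkbp5 and Mt2, with a few others given because a result turned on them. A gene the rule took is not reported here, and it stayed in every test and list. Some counts over all genes serve only as background.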

Additional observations from a re-analysis of the deposited data

Results flagged for a closer look

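A check for 1 library far from the other 4 of its group was run on 166 groups of 5, for the 10 genes and the others named, and chance marks about 1 in 20 groups. It marked 13 groups, or 7.83%, and 0 of the 20 groups of the 10 genes. Of the 13, 7 were in SA 1, where Col1a2 (11585 CPM), Col3a1 (12095 CPM), Mc2r (2.53 CPM), Mcpt4 (68.7 CPM), Mmp3 (53.7 CPM) and Mrc1 (102 CPM) were lowest and Krt15 (3732 CPM) was highest of the SA libraries. In SA 4, Il1b (9.57 CPM) and Nalcn (1.85 CPM), one of the genes nearest to Fkbp5 in profile, were highest of SA, and in SA 2 Ucp2 (264 CPM) was lowest. In SE 1, Ighm (83.4 CPM) and Lyz2 (552 CPM) were highest of SE, and in SE 5 the hair gene Tchh (1204 CPM) was highest.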

How the results depend on the processing

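The 5 libraries per group and the heterogeneity of SE limit what can be called: genes past the threshold numbered 13 in the edgeR fit, 297 with DESeq2, 34 with no low-count filter, 44 without SE 3 to 5 and 7 to 123 when single libraries were left out, with 123 without SE 1 and 69 without SE 2. The replicate block gave 8. Of the 10 genes, 0 were called in the edgeR fit, 4 by DESeq2, 1 with the replicate block (Fkbp5, -0.75, edgeR adjusted p = 0.0461) and 0 to 2 when single libraries were left out. Every library correlated best with another number except 1. Companion lists together held 0 called genes, 9 with DESeq2 and 0 to 5 when single libraries were left out (5 without SE 1, 3 without SE 2). Genes whose groups did not overlap numbered 346, and 2418 when SE 1 and 2 alone stood for SE, where fewer libraries make separation easier. Without SE 3 to 5, medians moved to -0.21 for the 10 genes, 0.06 for other induced targets, 0.00 (from -0.32) for fasting genes, -0.02 for hypoxia and 0.13 for the integrated stress response, and the sign turned for Sgk1 (0.16), Mt2 (-0.35), Hif3a (0.24) and Nr3c1 (-0.07). Mt2 also stood at -0.00 with the sex-gene covariate and at -0.06 to 0.32 when single libraries were left out (-0.06 without SA 3, -0.04 without SE 5). None of these reversed values was past the threshold, and beyond the design of each alternative the cause was not tested. Fkbp5, Tsc22d3, Zbtb16, Klf9, Mt1 and Ddit4 kept a negative fold change under all 20 alternatives.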
